A study of Homo sapiens with 16 samples.

Results

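The 35 genes described here carry glucose from its uptake to lactate, or answer to low oxygen. They were taken from a list of glycolysis enzymes, transporters and targets of the hypoxia-inducible factors (HIFs). Of 63677 gene IDs in the count tables, 1 matched each of the 35 symbols, and all 35 genes had enough reads to be among the 20280 genes tested. The data are poly(A) RNA-seq of a human melanoma line, UACC62P (parental), and of UACC62R, derived from it by resistance to vemurafenib. UACC62R was selected for 2 months in 2 uM vemurafenib, a BRAF inhibitor, and then cultured in it all the time, according to the text of the untreated samples. Each line was left without CCG-222740 (0 h) or was kept for 2, 6 or 24 h in 10 uM of it. CCG-222740 is an agent against MRTF/SRF-driven transcription. Untreated here means without CCG-222740. The lines and times gave 8 groups with 2 replicates each. The text of the treated samples does not say whether UACC62R stayed in vemurafenib, and no vehicle library was used here, so treatment cannot be told apart from handling that differed from the 0 h samples. The resistant line is 1 selected line. Nothing in the labels says that replicates came from separate cultures. The p-values thus measure the spread of these samples alone, and that spread may be technical.

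The library labelled UACC62P 2 h replicate 1 was left out. It stood apart from the other UACC62P libraries: among the 21 genes whose ranges in the lines did not overlap, 20 were nearer to UACC62R there. All values below come from the other 15 libraries, and UACC62P at 2 h has 1 library, whose spread is taken from the other groups. Over all 16 libraries, 25.9 to 33.3 M reads fell in genes (median 29.9 M). The 35 genes took 3.10 to 3.43% of these reads in UACC62P and 3.19 to 3.82% in UACC62R. Levels are in CPM (reads per M gene reads, with TMM-scaled library sizes), written as replicate 1 and then replicate 2. A gene is called higher or lower where its p from edgeR's quasi-likelihood test, adjusted after Benjamini and Hochberg across the 20280 genes, was under 0.05. Fold changes are log2 values throughout. Statements that groups or ranges did not overlap describe the libraries, and the share of all genes without overlap was not counted.

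As background, glycolysis splits glucose into pyruvate and yields ATP without oxygen, and lactate dehydrogenase turns the pyruvate into lactate, which leaves the cell with a proton through monocarboxylate transporters. In oxygen, the EGLN prolyl hydroxylases mark HIF1A and EPAS1 (HIF-2 alpha) for destruction by the VHL ubiquitin ligase. In low oxygen these subunits persist and bind short promoter and enhancer elements of most glycolysis genes and of genes for pH control and mitophagy. Melanomas that depend on mutant BRAF are known for high glycolysis, which BRAF inhibitors lower.

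The promoters of 4 genes are shown because the largest or most repeated differences fell on them. SLC2A1 and EGLN1 were called after treatment, SLC16A3 after 24 h in UACC62R, and CA9 and SLC16A3 had the largest differences between the lines. Each run is 300 bases, 250 before and 50 after the gene's start, from RefSeq on GRCh38.p14, 5′ to 3′ on the gene's strand. Capitals mark ACGTG or GCGTG, the core letters of the hypoxia response element, on either strand (CACGT and CACGC when read on the other one). ACGTG lies inside CACGTG, the E-box that MYC and MITF are also known to bind. The window of SLC2A1 lies on the minus strand at chr1:42958819-42959118, that of EGLN1 on the minus strand at chr1:231422238-231422537, that of SLC16A3 on the plus strand at chr17:82228185-82228484 and that of CA9 on the plus strand at chr9:35673678-35673977.
SLC2A1: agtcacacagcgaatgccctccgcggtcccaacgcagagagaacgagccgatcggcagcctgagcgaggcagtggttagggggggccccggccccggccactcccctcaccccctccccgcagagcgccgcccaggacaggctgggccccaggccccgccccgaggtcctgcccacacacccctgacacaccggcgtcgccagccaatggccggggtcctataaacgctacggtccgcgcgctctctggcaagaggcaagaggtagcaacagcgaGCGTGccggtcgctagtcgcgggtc
EGLN1: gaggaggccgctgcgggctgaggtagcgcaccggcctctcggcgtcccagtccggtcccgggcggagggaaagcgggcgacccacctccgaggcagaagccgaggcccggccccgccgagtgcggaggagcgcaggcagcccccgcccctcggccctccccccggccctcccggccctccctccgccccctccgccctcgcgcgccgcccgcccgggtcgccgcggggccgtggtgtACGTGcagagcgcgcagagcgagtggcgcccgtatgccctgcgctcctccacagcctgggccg
SLC16A3: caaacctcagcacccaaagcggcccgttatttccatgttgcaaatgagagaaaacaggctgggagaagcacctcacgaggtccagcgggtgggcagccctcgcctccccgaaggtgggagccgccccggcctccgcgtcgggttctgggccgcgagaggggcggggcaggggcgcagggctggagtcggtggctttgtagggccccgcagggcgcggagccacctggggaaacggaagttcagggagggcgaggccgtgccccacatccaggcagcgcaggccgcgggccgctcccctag
CA9: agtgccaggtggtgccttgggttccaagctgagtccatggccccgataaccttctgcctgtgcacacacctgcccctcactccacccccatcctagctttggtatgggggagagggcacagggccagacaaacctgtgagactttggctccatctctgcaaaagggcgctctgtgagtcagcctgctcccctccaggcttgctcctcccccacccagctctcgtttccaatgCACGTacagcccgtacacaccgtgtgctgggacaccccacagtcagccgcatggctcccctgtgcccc
The windows of SLC2A1, EGLN1 and CA9 each held 1 match, and that of SLC16A3 held none. Of the 35 genes, 31 had a promoter in the table (not SLC2A3, SLC16A1, BNIP3L and NDRG1). ACGTG or GCGTG was found in 23 of these 31 (74.2%), against 48.4% of all 35116 promoters of that length. ACGTG alone was in 12 of the 31 (38.7%, against 21.4%), GCGTG in 16 (51.6%, against 36.5%) and CACGTG in 5 (16.1%, against 7.26%). LDHA held the most copies of ACGTG, 5 in its window. The 31 are 1 promoter per gene, while the 35116 were not reduced to 1 per gene. The 35 genes were also chosen in part as HIF targets, so these shares are no test of HIF control. A match is a description of the letters and not a bound site.

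Before CCG-222740, the resistant line differed from the parental line in most of these genes, and in both directions. The sample text gives 2 uM vemurafenib for these UACC62R libraries and none for those of UACC62P. Line and vemurafenib thus cannot be told apart in this comparison. In UACC62R, 15 of 35 genes were higher and 11 lower (74.3%), where 27.8% of all genes tested were higher and 26.1% lower. The higher genes included the glucose transporter SLC2A1, the lactate exporter SLC16A3, CA9, EGLN3, ENO2, LDHA and both HIF subunits. The lower ones included HK2, PFKM, both PFKFB enzymes, LDHB and NDRG1. The median log2 difference was 0.20 over the 35 genes and 0.02 over all genes. Over the 35 genes it was 0.07 without UACC62P 0 h replicate 2, -0.000795 without UACC62R 0 h replicate 1 and 0.29 without its replicate 2, so single libraries decided its size. With the replicate number as a block (a fit that compares libraries of the same number), 16 were higher and 12 lower, with 30% and 28.6% of all genes, and GPI (-0.15, adjusted p = 0.0413) and PDK1 (0.41, adjusted p = 0.00666) joined the calls. Leaving out 1 library at a time left 22 to 26 calls. Calls lost were BNIP3, EGLN1, ENO1 and PFKFB4 without UACC62P 0 h replicate 1, and ALDOA, BNIP3, EGLN1 and PFKFB4 without its replicate 2. ALDOA, BNIP3, EGLN1 and TPI1 were lost without UACC62R 0 h replicate 1, and ENO1, NDRG1 and PFKFB4 without its replicate 2. Over these fits the highest adjusted p of ALDOA, BNIP3, EGLN1, ENO1, NDRG1, PFKFB4 and TPI1 were 0.309, 0.369, 0.177, 0.143, 0.0894, 0.303 and 0.127.

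Markers of cell identity moved with the same contrast. Of 7 melanocytic markers 6 were lower in UACC62R, and their summed level was 1137 to 1451 CPM over the 7 UACC62P libraries and 70.0 to 81.3 CPM over the 8 UACC62R libraries. Of 5 fibroblast markers 4 were higher, and their sum was 29.7 to 36.4 CPM in UACC62P and 332 to 617 CPM in UACC62R. Epithelial, endothelial and blood cell markers summed to at most 4.77 CPM in any library, with CDH1, PECAM1, CD3E and HBB at 0 reads in both lines. The part of these markers in the metabolic differences was not tested. In bulk RNA, fewer cells of a type and less RNA per cell cannot be told apart.

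**Figure D1:**
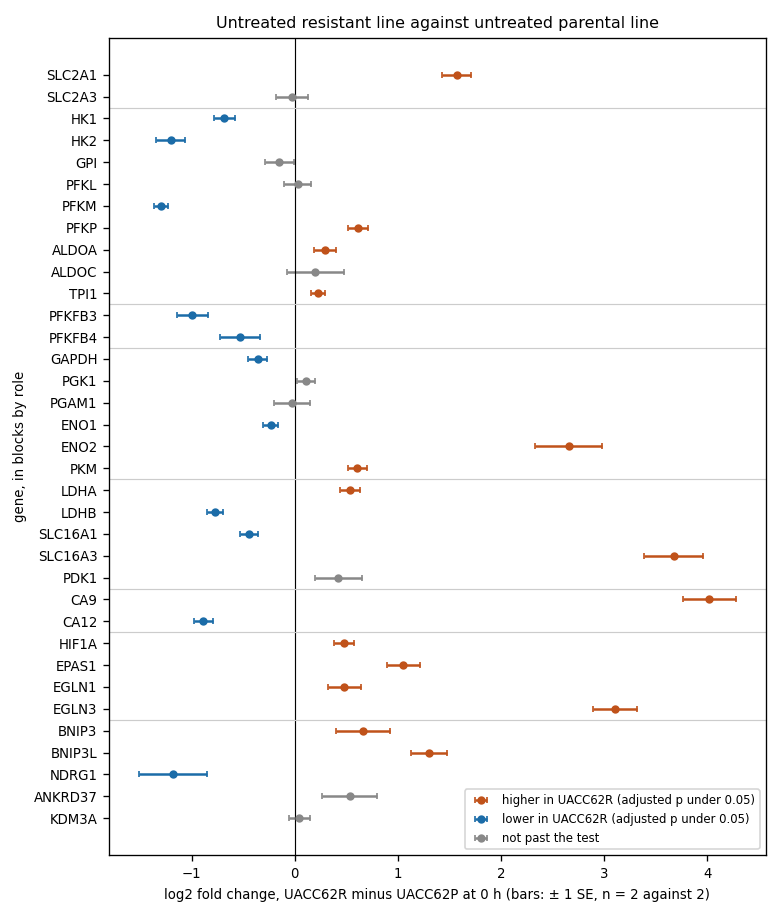
Log2 fold change of each of the 35 genes in untreated UACC62R against untreated UACC62P (x axis, bars ± 1 SE, 2 libraries against 2), with the genes in blocks by role. CA9, SLC16A3, EGLN3 and ENO2 lie farthest to the right, and PFKM, HK2, NDRG1 and PFKFB3 farthest to the left.

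Glucose enters through SLC2A1 (GLUT1) and the high-affinity SLC2A3 (GLUT3). Untreated, SLC2A1 stood at 226 and 196 CPM in UACC62P and 683 and 572 CPM in UACC62R, so that both resistant libraries lay above both parental ones (log2 fold change 1.57, SE 0.14, adjusted p = 3.33e-07). SLC2A3 stood at 81.4 and 77.5 CPM in UACC62P and 87.6 and 68.2 CPM in UACC62R, with overlapping groups (log2 fold change -0.03, SE 0.15, adjusted p = 0.892).

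Genes of the upper steps, which trap and split the sugar, moved in both directions. HK2, the hexokinase that HIF induces, stood at 472 and 467 CPM in UACC62P and 238 and 172 CPM in UACC62R, lower in both resistant libraries (log2 fold change -1.20, SE 0.14, adjusted p = 4.89e-06). The widely expressed HK1 was also lower (-0.68, SE 0.10, adjusted p = 6.46e-05) and ranged over 481 to 555 CPM in UACC62P and 285 to 389 CPM in UACC62R across all times. Phosphofructokinase commits the sugar to glycolysis and has muscle, liver and platelet forms. The muscle form PFKM stood at 328 and 341 CPM in UACC62P and 136 and 137 CPM in UACC62R (log2 fold change -1.29, SE 0.07, adjusted p = 8.95e-10), with no overlap. The platelet form PFKP moved the other way, from 275 and 241 CPM in UACC62P to 417 and 373 CPM in UACC62R (log2 fold change 0.61, SE 0.10, adjusted p = 9.56e-05). The liver form PFKL did not pass the test (0.03, SE 0.13). PFKFB3 and PFKFB4 set fructose 2,6-bisphosphate, the activator of phosphofructokinase. PFKFB3 stood at 228 and 211 CPM in UACC62P and 123 and 97.8 CPM in UACC62R (log2 fold change -0.99, SE 0.15, adjusted p = 6.18e-05) and PFKFB4 at 187 and 169.6 CPM in UACC62P and 148 and 98.5 CPM in UACC62R (log2 fold change -0.53, SE 0.19, adjusted p = 0.0302), with no overlap for either gene. Among the other genes of the upper steps, ALDOA (0.29) and TPI1 (0.23) were slightly higher. GPI (-0.15) and ALDOC (0.20) did not pass the test, and ALDOC overlapped between the lines at 65.3 and 45.3 CPM in UACC62P and 79.4 and 47.8 CPM in UACC62R.

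In the lower steps, which yield ATP, the neuronal enolase ENO2 had the largest difference. ENO2 stood at 13.2 and 11.6 CPM in UACC62P and 99.8 and 56.7 CPM in UACC62R (log2 fold change 2.65, SE 0.32, adjusted p = 7.12e-06). Both resistant libraries were far above the parental ones, yet they also differed between themselves. ENO1, the common enolase, was lower (-0.23, adjusted p = 0.0173), as was GAPDH (-0.36, adjusted p = 0.00377). The pyruvate kinase gene PKM was higher (0.61, adjusted p = 5.22e-05), while PGK1 (0.11) and PGAM1 (-0.03) did not pass. Over all times GAPDH ranged over 7220.3 to 8581 CPM in UACC62P and 5674 to 7004 CPM in UACC62R, ENO1 over 6218 to 6734 and 4887 to 6085, and PKM over 3935 to 4460.5 and 6022 to 7558. Per kilobase of exon, GAPDH, ENO1 and ALDOA had the highest median levels of the 35 genes in both lines, at 2616, 1218 and 676 CPM per kb in UACC62P and 2055, 1049.5 and 819 in UACC62R. Reads that align to several places were not counted, and near-identical copies carry names for 65 GAPDH, 44 BNIP3 and 13 PGAM1 pseudogenes, so levels of these genes are uncertain. In ALDOA, 42.3% of the exonic sequence overlaps another gene on the same strand and 13.3% on the other strand. Its level per kb is thus uncertain as well.

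Of 5 genes that decide the fate of pyruvate and lactate, 2 were higher and 2 lower. LDHA, the dehydrogenase subunit that favours lactate, stood at 2153 and 2065 CPM in UACC62P and 3252 and 2876 CPM in UACC62R (log2 fold change 0.54, SE 0.10, adjusted p = 3.05e-04). LDHB, the subunit that favours pyruvate, stood at 1730.0 and 1858 CPM in UACC62P and 1008 and 1097 CPM in UACC62R (log2 fold change -0.77, SE 0.08, adjusted p = 8.15e-07). The groups did not overlap for either gene, and the directions were opposite. SLC16A3 (MCT4), the lactate exporter of glycolytic cells, was near the limit of detection in the parental line, at 0.900 and 0.324 CPM in UACC62P and 8.04 and 7.79 CPM in UACC62R (log2 fold change 3.67, SE 0.29, adjusted p = 7.07e-08). The difference was 4.59 without UACC62P 0 h replicate 1 and 3.13 without UACC62P 0 h replicate 2. SLC16A1 (MCT1), which moves lactate both ways, was lower in UACC62R, with 263 and 235 CPM against 187 and 179 CPM (log2 fold change -0.44, SE 0.09, adjusted p = 5.90e-04). PDK1, the kinase that shuts pyruvate dehydrogenase and so keeps pyruvate out of the mitochondria, stood at 51.8 and 44.9 CPM in UACC62P and 75.6 and 53.9 CPM in UACC62R and passed the test only with the block.

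The membrane carbonic anhydrases, which buffer the acid that glycolytic cells export, moved in opposite directions. CA9, a strict HIF-1 target, stood at 5.19 and 2.49 CPM in UACC62P and 65.8 and 59.3 CPM in UACC62R (log2 fold change 4.02, SE 0.26, adjusted p = 7.48e-09), the largest difference among the 35 genes. It was 4.65 without UACC62P 0 h replicate 1 and 3.59 without UACC62P 0 h replicate 2. CA12 stood at 147 and 147 CPM in UACC62P and 79.3 and 79.7 CPM in UACC62R (log2 fold change -0.88, SE 0.09, adjusted p = 1.13e-06). Part of the exonic sequence of CA9 (38.5%) overlaps a gene on the other strand, and no source used here gives the strand setting of the counting.

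The 4 genes of oxygen sensing described here were all higher in UACC62R, where 27.8% of all genes were higher and 26.1% lower. Further oxygen-sensing genes, given below, moved in both directions. HIF1A stood at 539 and 517 CPM in UACC62P and 749.9 and 718 CPM in UACC62R (log2 fold change 0.48, SE 0.10, adjusted p = 7.19e-04) and EPAS1 at 68.4 and 48.1 CPM in UACC62P and 130.0 and 112 CPM in UACC62R (log2 fold change 1.05, SE 0.16, adjusted p = 7.37e-05), with no overlap. Among their hydroxylases, EGLN1 (PHD2), the main oxygen sensor, stood at 76.0 and 73.7 CPM in UACC62P and 115 and 94.6 CPM in UACC62R (log2 fold change 0.48, SE 0.16, adjusted p = 0.017). The EGLN1 call was lost without either UACC62P 0 h library or without UACC62R 0 h replicate 1. Its log2 difference ranged from 0.33 to 0.62 with 1 library left out at a time. EGLN3 (PHD3), itself a HIF target, stood at 0.727 and 0.901 CPM in UACC62P and 7.71 and 6.29 CPM in UACC62R (log2 fold change 3.10, SE 0.21, adjusted p = 1.76e-08), so the gene was low in both lines and under 1 CPM in both parental libraries. HIF subunits are controlled mainly as proteins, which these data do not measure.

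The other HIF targets did not move as one. The mitophagy receptors BNIP3 and BNIP3L were higher. BNIP3 stood at 66.8 and 53.1 CPM in UACC62P and 112 and 77.0 CPM in UACC62R (log2 fold change 0.66, SE 0.26, adjusted p = 0.0461), a call lost in 7 of 15 fits that left out 1 library, those without either UACC62P library at 0, 6 or 24 h or without UACC62R 0 h replicate 1. BNIP3L stood at 89.5 and 77.4 CPM in UACC62P and 233 and 178 CPM in UACC62R (log2 fold change 1.30, SE 0.17, adjusted p = 1.89e-05). NDRG1, a stress-induced gene and a usual hypoxia marker, was lower at 769.6 and 689.6 CPM in UACC62P and 426 and 219 CPM in UACC62R (log2 fold change -1.18, SE 0.33, adjusted p = 0.00735), but the resistant libraries differed nearly as much between themselves, and without UACC62R 0 h replicate 2 the adjusted p was 0.0894. ANKRD37, at 1.87 and 1.73 CPM in UACC62P and 2.70 and 2.50 CPM in UACC62R, and the histone demethylase KDM3A, at 85.6 and 83.6 CPM in UACC62P and 97.8 and 76.7 CPM in UACC62R, did not pass.

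Isozyme shares put levels on 1 scale, CPM per kilobase of exon, and are given as a description. Their absolute size is uncertain. Of the exonic sequence, 33.4% overlaps another gene on the same strand in LDHB, and 38.5% on the other strand in CA9. Exon lengths came from GENCODE v29, while the submitters name hg19. LDHA made 34.7 to 38.3% of LDHA plus LDHB over the 7 UACC62P libraries and 55.0 to 65.6% over the 8 UACC62R libraries, whatever the time. The share of PFKM among the phosphofructokinases was 33.2 to 37.7% in UACC62P and 12.7 to 16.6% in UACC62R, and that of PFKP 38.9 to 42.6% and 56.2 to 64.1%. CA9 made 6.90 to 21.3% of CA9 plus CA12 in UACC62P and 76.5 to 81.4% in UACC62R. No library of one line entered the range of the other for these 4 shares. The share of ENO2 in ENO1 plus ENO2 reached at most 2.52% in any library, and that of SLC16A3 in SLC16A1 plus SLC16A3 at most 4.30%, so the large fold differences of ENO2 and SLC16A3 concern small parts of their pairs. In UACC62R the share of HK2 in HK1 plus HK2 was 38.5% ± 3.20 (SD, n = 2) at 0 h and 50.7% ± 0.70 at 24 h, and that of SLC2A1 in SLC2A1 plus SLC2A3 was 91.3% ± 0.40 and 84.4% ± 0.71.

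**Figure D2:**
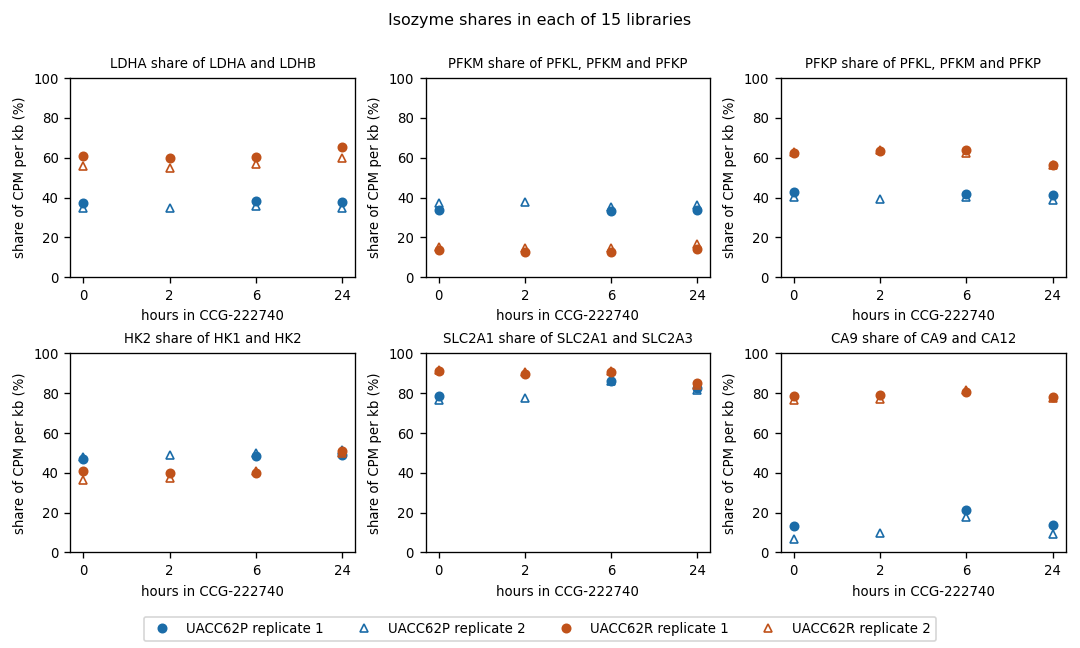
Share of CPM per kilobase (y axis, percent) of 1 isozyme within its pair or family in each of 15 libraries, by hours in CCG-222740 (x axis). The lines keep apart at all times for LDHA, PFKM, PFKP and CA9, while the HK2 share of UACC62R reaches 50.7% at 24 h, beside the parental line's 50.2%.

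In treated against untreated libraries, 6 of these genes were called: the glucose transporters SLC2A1 and SLC2A3, the hexokinase HK2, the lactate exporter SLC16A3, the oxygen sensor EGLN1 and the demethylase KDM3A. That number depends on the fit. With the replicate block, whose pairing the data show, 13 and 8 genes were called at 6 and 24 h in UACC62P. In UACC62R 7 and 15 were called, against 2, 1, 1 and 4 in these comparisons without the block. The block raised calls over all genes too. In that order 3.64% were higher and 3.33% lower, 6.04% and 6.04%, 1.74% and 1.06%, and 11% and 13.2%. Without the block these shares were 0.848% and 0.671%, 2.19% and 1.65%, 0.38% and 0.286%, and 6.48% and 8.23%. After 6 h, SLC2A1 and EGLN1 rose in UACC62P and EGLN1 rose in UACC62R. After 24 h, SLC2A1 was still higher in UACC62P, whereas SLC2A3, HK2, SLC16A3 and, at the threshold, KDM3A were higher in UACC62R. Without the block, none of the 35 genes was called lower than at 0 h in either line at 2, 6 or 24 h. Comparisons with 0 h in a line share the same untreated libraries, so their values are not independent of each other.

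Markers of cell identity also differed between treated and untreated libraries. The summed level of the 7 melanocytic markers in UACC62P was 1291 to 1451 CPM at 0 h, 1137 to 1218 CPM at 6 h and 1229 to 1262 CPM at 24 h. MITF, the melanocyte lineage factor, was lower there at 6 h (log2 fold change -0.65, adjusted p = 0.00481) and 24 h (-0.46, adjusted p = 0.0219), and MLANA, a melanosome protein, at 24 h (-0.46, adjusted p = 0.0234). In UACC62R MLANA was lower at 24 h (-1.25, adjusted p = 0.0488), from a level under 0.5 CPM. In UACC62R the 5 fibroblast markers summed to 488 to 589.6 CPM at 0 h and 332 to 452 CPM at 24 h. Most of that sum was COL1A1, at 380 and 453 CPM untreated and 229 and 324 CPM after 24 h. At 24 h 0 of the 5 were called without the block. With it, FAP (-0.34, adjusted p = 0.0024) and COL1A1 (-0.60, adjusted p = 0.0201) were lower, where 13.2% of all genes were lower. LUM (0.10), PDGFRB (0.17) and DCN (0.93) had positive fold changes in that fit and were not called. With the block MLANA was also lower at 6 h and FAP at 24 h in UACC62P, and MITF at 24 h in UACC62R. The part of these markers in the treatment values was not tested.

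At 6 h in UACC62P, 2 of 35 genes were higher and 0 lower, where 0.848% of all genes were higher and 0.671% lower. At an unadjusted p under 0.05, 9 were higher and 1 lower (28.6%, against 13.7% of all genes), and DESeq2 called 2. SLC2A1 was read at 226 and 196 CPM untreated, 265 after 2 h (1 library), 377 and 382 after 6 h and 345 and 319 after 24 h. Both 6 h libraries lay above both untreated ones (log2 fold change 0.85, SE 0.14, adjusted p = 0.00727). EGLN1 was read at 76.0 and 73.7 CPM untreated, 96.0 after 2 h (1 library), 120.3 and 139 after 6 h and 92.5 and 88.7 after 24 h, highest at 6 h (log2 fold change 0.79, SE 0.16, adjusted p = 0.0208). Without UACC62P 0 h replicate 2 or UACC62P 6 h replicate 2 neither gene was called (adjusted p up to 0.112 for SLC2A1 and 0.228 for EGLN1), and EGLN1 was not called without UACC62P 0 h replicate 1 either. With the block, 12 genes were higher and 1 lower, with 3.64% and 3.33% of all genes. The added genes, with their fold changes in that fit, were ENO2 (0.95), CA9 (0.84), BNIP3 (0.66), PDK1 (0.64), BNIP3L (0.53), KDM3A (0.35), PGK1 (0.28), PGAM1 (0.23), ALDOA (0.21) and SLC16A1 (0.18) among those higher, and CA12 (-0.26) as the lower one, with adjusted p from 3.61e-04 (BNIP3) to 0.0461 (SLC16A1). The median log2 fold change was 0.13 over the 35 genes, against 0 over all genes. It was 0.04 without UACC62P 0 h replicate 2, 0.07 without UACC62P 6 h replicate 1, 0.21 without UACC62P 0 h replicate 1 and 0.19 without UACC62P 6 h replicate 2.

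Several genes that passed only with the block are given by library. With 2 libraries against 2, groups that stand apart are weak evidence of a change. ENO2 was read at 13.2 and 11.6 CPM untreated, 12.7 after 2 h (1 library), 24.2 and 23.3 after 6 h and 21.9 and 16.3 after 24 h in UACC62P, so that both 6 h libraries were above both untreated ones (log2 fold change 0.94, SE 0.32, adjusted p = 0.189 without the block). CA9 was read there at 5.19 and 2.49 CPM untreated, 3.28 after 2 h (1 library), 7.90 and 5.84 after 6 h and 4.91 and 3.04 after 24 h, and its untreated libraries also lay apart from each other. BNIP3 was read at 66.8 and 53.1 CPM untreated, 69.1 after 2 h (1 library), 100.2 and 88.3 after 6 h and 97.0 and 74.7 after 24 h (log2 fold change 0.65, SE 0.26, adjusted p = 0.275), and PDK1 at 51.8 and 44.9 CPM untreated, 54.9 after 2 h (1 library), 74.1 and 75.1 after 6 h and 71.5 and 59.2 after 24 h (log2 fold change 0.63, SE 0.23, adjusted p = 0.221). CA12, in the other direction, was read at 147 and 147 CPM untreated, 136 after 2 h (1 library), 128 and 118 after 6 h and 134 and 133 after 24 h (log2 fold change -0.26, SE 0.09, adjusted p = 0.187).

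At 6 h in UACC62R, 1 of 35 genes was higher and 0 lower, where 0.38% of all genes were higher and 0.286% lower. Unadjusted, 7 were higher at a p under 0.05 and 0 lower (20%, against 9.09% of all genes). DESeq2 called 2, EGLN1 and SLC16A1. EGLN1 was read at 115 and 94.6 CPM untreated, 168 and 123 after 2 h, 203 and 174 after 6 h and 145 and 108 after 24 h, in the order untreated, 24 h, 2 h and 6 h by group means, and both 6 h libraries were above both untreated ones (log2 fold change 0.85, SE 0.15, adjusted p = 0.0205). The call was lost without UACC62R 0 h replicate 1, UACC62R 0 h replicate 2 or UACC62R 6 h replicate 1 (adjusted p up to 0.264). With the block 7 genes were higher and 0 lower, with 1.74% and 1.06% of all genes. The 6 added, with fold changes in that fit, were PDK1 (0.59), BNIP3 (0.57), BNIP3L (0.40), SLC16A1 (0.38), PFKFB4 (0.38) and PGK1 (0.33), with adjusted p from 3.72e-04 (PGK1) to 0.0489 (PFKFB4). PDK1 was read at 75.6 and 53.9 CPM untreated, 88.6 and 59.5 after 2 h, 109 and 85.6 after 6 h and 87.5 and 54.0 after 24 h and BNIP3 at 112 and 77.0 CPM untreated, 133 and 89.6 after 2 h, 167 and 114 after 6 h and 150.5 and 90.6 after 24 h. In both genes replicate 1 exceeded replicate 2 at every time, and replicate 2 at 6 h lay only a little above replicate 1 at 0 h. SLC16A1 was read at 187 and 179 CPM untreated, 202 and 188 after 2 h, 244 and 233 after 6 h and 201 and 181 after 24 h, with both 6 h libraries above all others (log2 fold change 0.38, SE 0.09, adjusted p = 0.0733 without the block). HIF1A was read at 749.9 and 718 CPM untreated, 769 and 664 after 2 h, 698 and 611 after 6 h and 885 and 741 after 24 h, lowest at 6 h by group mean (log2 fold change -0.17, SE 0.10, adjusted p = 0.66).

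At 24 h in UACC62P, SLC2A1 was the 1 of 35 genes called higher and 0 were lower, where 2.19% of all genes were higher and 1.65% lower. Its log2 fold change was 0.65 (SE 0.14, adjusted p = 0.0187). It was lost without UACC62P 0 h replicate 2, UACC62P 24 h replicate 1 or UACC62P 24 h replicate 2 (adjusted p up to 0.176). Before adjustment 3 were higher at a p under 0.05 and 0 lower (8.57%, against 18.1% of all genes), so the 35 genes passed no more often than all genes. DESeq2 called 1. With the block 7 were higher and 1 lower, with 6.04% of all genes in each direction. Those added, with fold changes in that fit, were ENO2 (0.61), BNIP3 (0.52), PDK1 (0.43), BNIP3L (0.34), SLC16A1 (0.20), PGK1 (0.15) and, lower, LDHA (-0.15), with adjusted p from 0.00186 (BNIP3) to 0.0483 (LDHA). LDHA was read at 2153 and 2065 CPM untreated, 2110.1 after 2 h (1 library), 2183 and 1932 after 6 h and 2015 and 1806 after 24 h. NDRG1 was read there at 769.6 and 689.6 CPM untreated, 731 after 2 h (1 library), 889 and 838 after 6 h and 1065 and 965 after 24 h, its 24 h libraries being the highest, and did not pass either fit (log2 fold change 0.48, SE 0.32, adjusted p = 0.487; 0.0729 with the block).

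At 24 h in UACC62R, 4 of 35 genes were higher and 0 lower, where 6.48% of all genes were higher and 8.23% lower. Before adjustment 6 were higher at a p under 0.05 and 2 lower (22.9%, against 27.9% of all genes), so the 35 genes passed no more often than all genes. DESeq2 called 6, with LDHB and PFKP added. SLC2A3 was read at 87.6 and 68.2 CPM untreated, 113 and 83.5 after 2 h, 108 and 85.4 after 6 h and 154 and 125 after 24 h, with both 24 h libraries above all others (log2 fold change 0.84, SE 0.15, adjusted p = 0.00209). HK2 was read at 238 and 172 CPM untreated, 239 and 191 after 2 h, 249.7 and 220.1 after 6 h and 339 and 277 after 24 h, again highest at 24 h (log2 fold change 0.59, SE 0.14, adjusted p = 0.011), which was still below the 467 to 497 CPM of the parental line. SLC16A3 was read at 8.04 and 7.79 CPM untreated, 7.31 and 8.09 after 2 h, 7.31 and 6.47 after 6 h and 13.5 and 13.8 after 24 h, flat to 6 h and then higher in both libraries (log2 fold change 0.78, SE 0.21, adjusted p = 0.022). KDM3A was read at 97.8 and 76.7 CPM untreated, 105 and 103 after 2 h, 108 and 109.7 after 6 h and 117 and 102 after 24 h (log2 fold change 0.33, SE 0.10, adjusted p = 0.0491) and sat at the threshold: 12 of 15 fits without 1 library lost it, all but those without UACC62R 0 h replicate 1, UACC62R 24 h replicate 2 and UACC62P 2 h replicate 2. Without UACC62R 0 h replicate 2 or UACC62R 24 h replicate 1 only SLC2A3 was called, with HK2 at adjusted p up to 0.148 and SLC16A3 up to 0.139. SLC16A3 was also lost without UACC62R 0 h replicate 1 or UACC62R 24 h replicate 2.

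With the block, 11 of the 35 genes were higher and 4 lower at 24 h in UACC62R, with 11% and 13.2% of all genes. The added higher genes, with fold changes in that fit, were NDRG1 (0.80), ALDOC (0.49), BNIP3L (0.35), BNIP3 (0.33), PGK1 (0.25), PKM (0.15) and GAPDH (0.14). The lower ones were PFKP (-0.28), EPAS1 (-0.26), LDHB (-0.22) and PGAM1 (-0.22), and the adjusted p of these 11 ran from 4.47e-04 (PFKP) to 0.0312 (EPAS1). NDRG1 was read at 426 and 219 CPM untreated, 445 and 267 after 2 h, 536 and 321 after 6 h and 729 and 391 after 24 h and ALDOC at 79.4 and 47.8 CPM untreated, 84.3 and 56.9 after 2 h, 91.2 and 62.6 after 6 h and 109.6 and 69.0 after 24 h. For both, replicate 2 at 24 h was below replicate 1 at 0 h, so the groups overlapped. EPAS1 was read at 130.0 and 112 CPM untreated, 127 and 117 after 2 h, 126 and 109 after 6 h and 116 and 87.5 after 24 h.

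After 2 h, 0 of 35 genes were called in either line. Of all genes, 0.0296% were higher and 0.0148% lower in UACC62P, and 0.0493% and 0.0247% in UACC62R. At an unadjusted p under 0.05, 1 gene was higher and 1 lower in UACC62P (5.71%, against 4.32% of all genes). In UACC62R 5 were higher and 0 lower (14.3%, against 4.21%), and DESeq2 called 0 in both lines. With the block KDM3A alone was higher in UACC62P (log2 fold change 0.61, SE 0.11, adjusted p = 0.024), with 0.0986% and 0.0493% of all genes, and 0 were called in UACC62R, with 0.237% and 0.128%. KDM3A was read in UACC62P at 85.6 and 83.6 CPM untreated, 127 after 2 h (1 library), 101 and 114 after 6 h and 102 and 102 after 24 h, so the 1 library at 2 h was the highest of the line. In UACC62R, EGLN1 (0.48, SE 0.15) and ANKRD37 (0.55, SE 0.25) had the largest values at 2 h. ANKRD37 was read there at 2.70 and 2.50 CPM untreated, 3.71 and 3.90 after 2 h, 2.72 and 2.40 after 6 h and 3.80 and 2.56 after 24 h and in UACC62P at 1.87 and 1.73 CPM untreated, 1.66 after 2 h (1 library), 1.64 and 1.51 after 6 h and 1.64 and 1.02 after 24 h.

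**Figure D3:**
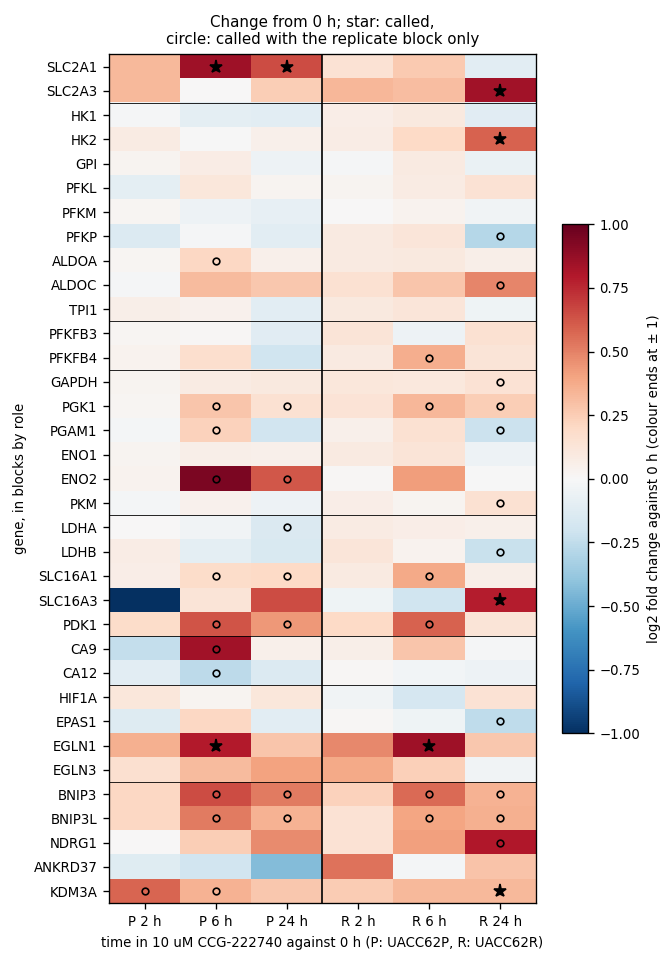
Log2 fold change against 0 h (colour, ends at ± 1) of the 35 genes after 2, 6 and 24 h in each line. Stars mark calls at adjusted p under 0.05 and circles those reached only with the replicate block. SLC2A1 and EGLN1 stand out at 6 h in UACC62P, EGLN1 at 6 h and SLC2A3 and SLC16A3 at 24 h in UACC62R, and SLC16A3 at 2 h in UACC62P (-1.37, past the end of the scale) rests on 1 library.

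Early and late levels were compared directly in each line. In UACC62R, 3 of 35 genes were higher at 24 h than at 6 h and 4 were lower, where 5.18% of all genes were higher and 7.39% lower. Those higher were SLC16A3 (0.98, adjusted p = 0.0081), SLC2A3 (0.53, adjusted p = 0.0343) and HIF1A (0.31, adjusted p = 0.0453). Those lower were EGLN1 (-0.58, adjusted p = 0.0243), PFKP (-0.41, adjusted p = 0.0145), SLC16A1 (-0.32, adjusted p = 0.0252) and LDHB (-0.26, adjusted p = 0.0361). PFKP was read in UACC62R at 417 and 373 CPM untreated, 435 and 405 after 2 h, 455 and 406 after 6 h and 343 and 307 after 24 h, and LDHB at 1008 and 1097 CPM untreated, 1099.9 and 1191 after 2 h, 1047 and 1113 after 6 h and 854 and 948 after 24 h, both lowest at 24 h. Without UACC62R 6 h replicate 1, 3 of the 7 genes were called, and without UACC62R 6 h replicate 2, 2 were. HIF1A was lost in 10 of 15 such fits (adjusted p up to 0.414), all but those without a 2 h library, UACC62R 6 h replicate 1 or UACC62R 24 h replicate 2. LDHB was lost without UACC62P 24 h replicate 2, either UACC62R 6 h library or UACC62R 24 h replicate 1 (up to 0.233), and SLC2A3 without UACC62P 24 h replicate 1, UACC62R 6 h replicate 2 or UACC62R 24 h replicate 1 (up to 0.285). SLC16A1 was lost without either UACC62R 6 h library or UACC62R 24 h replicate 2 (up to 0.138). EGLN1 and PFKP were lost without UACC62R 6 h replicate 1 or UACC62R 24 h replicate 2 (up to 0.184 and 0.11), and SLC16A3 without UACC62R 6 h replicate 2 (0.0839). With the block 4 were higher and 11 lower, with 9.94% and 12.2% of all genes. With fold changes in that fit, HK2 (0.39) joined those higher, and PDK1 (-0.48), ENO2 (-0.43), SLC2A1 (-0.37), PGAM1 (-0.37), HK1 (-0.22), TPI1 (-0.17) and ENO1 (-0.17) those lower.

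In UACC62P 0 of 35 genes differed between 24 h and 6 h by edgeR's test, where 0.345% of all genes were higher and 0.39% lower. Unadjusted, 0 were higher at a p under 0.05 and 4 lower (11.4%, against 12.6% of all genes), and DESeq2 called 1, EGLN1. With the block 0 were higher and 5 lower, with 2.34% and 2.71% of all genes, namely CA9 (-0.79), EGLN1 (-0.52), PGAM1 (-0.42), PFKFB4 (-0.37) and EPAS1 (-0.32), with adjusted p from 8.84e-04 (PGAM1) to 0.0434 (EPAS1). EGLN1 was thus lower at 24 h than at 6 h in both lines with the block, and in UACC62R also without it. PFKFB4 was read in UACC62P at 187 and 169.6 CPM untreated, 183 after 2 h (1 library), 203 and 197 after 6 h and 163 and 147 after 24 h, and EPAS1 at 68.4 and 48.1 CPM untreated, 53.3 after 2 h (1 library), 68.8 and 65.9 after 6 h and 59.8 and 48.8 after 24 h.

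**Figure D4:**
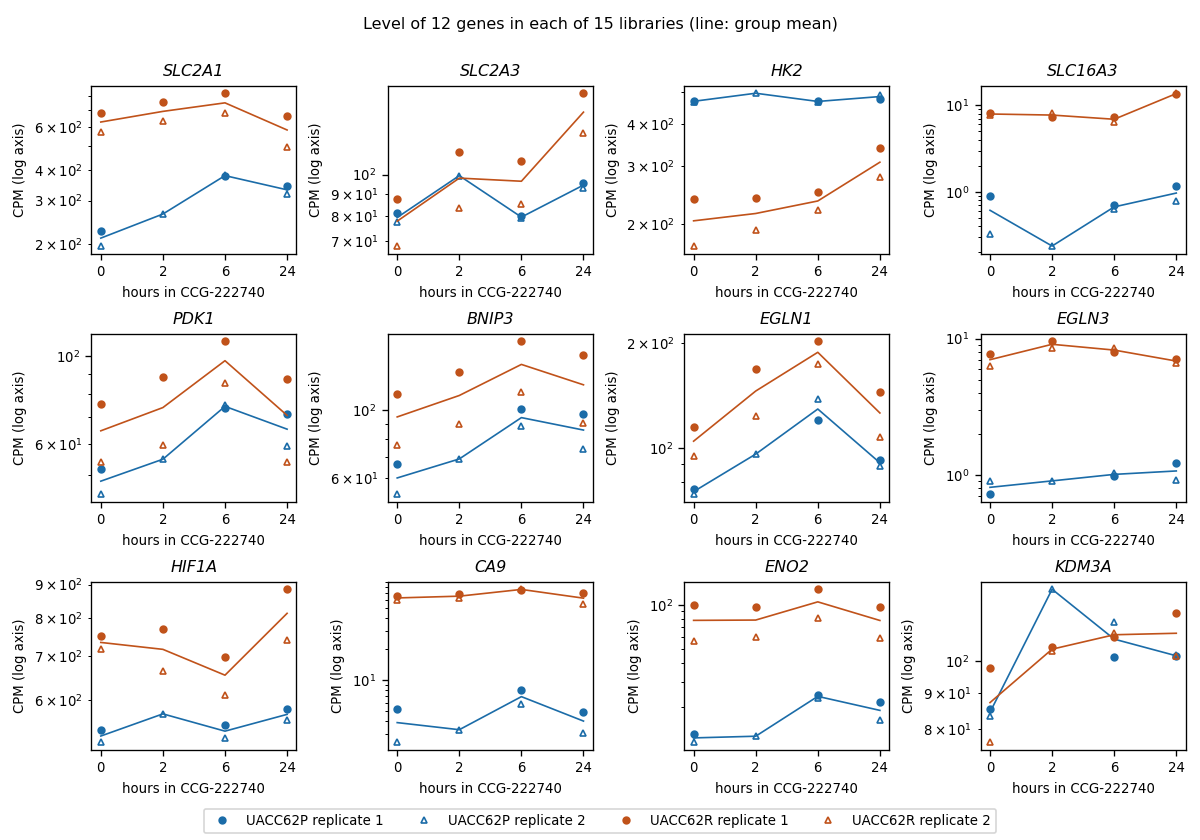
Level in CPM (y axis, log scale) of 12 genes in each of 15 libraries by hours in CCG-222740 (x axis, evenly spaced times), with a line through the group means. EGLN1 peaks at 6 h in both lines, SLC2A3, HK2 and SLC16A3 are highest at 24 h in UACC62R, and for BNIP3 and ENO2 the UACC62R replicates lie apart at every time.

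Whether the lines responded differently was tested as the difference of their responses (UACC62R minus UACC62P). At 6 h 0 of 35 genes passed, where 0% of all genes were higher and 0.00493% lower. At an unadjusted p under 0.05, 0 were higher and 1 lower (2.86%, against 4.69% of all genes), and DESeq2 called 0. At 24 h 0 passed, where 0.242% and 0.321% of all genes did. Before adjustment 2 were higher at a p under 0.05 and 1 lower (8.57%, against 10.8% of all genes), and DESeq2 called SLC2A1. With the block, SLC2A1 responded less in UACC62R at 6 h (log2 fold change -0.59, SE 0.11, adjusted p = 0.0254), with 0.113% and 0.0986% of all genes. At 24 h with the block, SLC2A1 (log2 fold change -0.77, SE 0.11, adjusted p = 4.78e-04) was lower and SLC2A3 (log2 fold change 0.59, SE 0.13, adjusted p = 0.0139) and HK2 (log2 fold change 0.54, SE 0.13, adjusted p = 0.0243) higher in their response, with 1.77% and 2.29% of all genes. SLC2A1 was read in UACC62R at 683 and 572 CPM untreated, 755 and 632 after 2 h, 822 and 680.4 after 6 h and 666 and 499 after 24 h, and SLC2A3 in UACC62P at 81.4 and 77.5 CPM untreated, 99.4 after 2 h (1 library), 79.9 and 79.4 after 6 h and 95.8 and 93.2 after 24 h. HK2 in UACC62P was read at 472 and 467 CPM untreated, 497 after 2 h (1 library), 472 and 467 after 6 h and 479 and 493 after 24 h, with no library below 467 CPM or above 497, while both 24 h libraries of UACC62R exceeded all earlier ones. EGLN1, called at 6 h in both lines, had a difference of 0.06 (SE 0.22).

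Further levels are given by range. In UACC62R at 2 to 24 h, CA9 ranged over 54.5 to 76.0 CPM, EGLN3 over 6.64 to 9.56 CPM, CA12 over 68.7 to 84.9 CPM, PFKM over 130.1 to 144 CPM, PFKFB3 over 93.8 to 142 CPM, PFKFB4 over 111 to 178 CPM, ENO2 over 59.5 to 127 CPM and LDHA over 2939.5 to 3442 CPM. In UACC62P, HIF1A ranged over 525 to 582 CPM, EGLN3 over 0.908 to 1.23 CPM, PFKFB3 over 200.1 to 233 CPM, PFKM over 314 to 339.8 CPM, PFKP over 225 to 266 CPM, LDHB over 1589.6 to 1887 CPM, ALDOC over 54.8 to 75.7 CPM, SLC16A1 over 260.2 to 301 CPM and SLC16A3 over 0.237 to 1.16 CPM. None of these passed the test against 0 h without the block; with it, PFKFB4 in UACC62R at 6 h and SLC16A1 in UACC62P at 6 and 24 h did. Over all times, GPI spanned 754 to 887 CPM in UACC62P and 624 to 859 CPM in UACC62R, PFKL 249.7 to 295 and 242 to 334, ALDOA 2361 to 2970.4 and 2819.6 to 3496, TPI1 815 to 930.3 and 977 to 1161, PGK1 1479 to 1889.8 and 1535 to 2171, PGAM1 74.1 to 121 and 68.3 to 117, and BNIP3L 77.4 to 123 and 178 to 298. Of these 7 genes, TPI1 and BNIP3L had ranges that did not overlap between the lines.

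Replicate 1 was higher than replicate 2 for most of these genes, a comparison chosen after the data were seen. In the blocked fit 27 of 35 genes were higher in replicate 1 and 1 (LDHB) lower, where 9.06% of all genes were higher and 6.21% lower. In all 7 pairs of libraries, replicate 1 was higher for 21 of 35 genes (60%), against 7.81% of all genes. The median log2 difference was 0.18 over the 35 genes and 0.003 over all. The largest were ENO2 (0.54, SE 0.07), NDRG1 (0.53, SE 0.09), ALDOC (0.49, SE 0.06) and BNIP3 (0.47, SE 0.05), with adjusted p of 0.000126, 0.000851, 0.000105 and 2.57e-05. These values pool the lines, because the block holds an offset per gene that both lines share. By group, NDRG1 differed by 0.08 to 0.16 in UACC62P and 0.74 to 0.96 in UACC62R. HK2 differed by -0.04 to 0.02 and 0.18 to 0.47, while the lines were more alike for GAPDH (0.09 to 0.17 and 0.12 to 0.20). For NDRG1 in UACC62R, replicate 2 after 24 h (391 CPM) was still below untreated replicate 1 (426 CPM). PFKM went the other way in 7 of 7 pairs, without passing the test (-0.05, adjusted p = 0.252). The labels give no batch, culture or date for a replicate number, so what the numbers stand for was not tested.

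**Figure D5:**
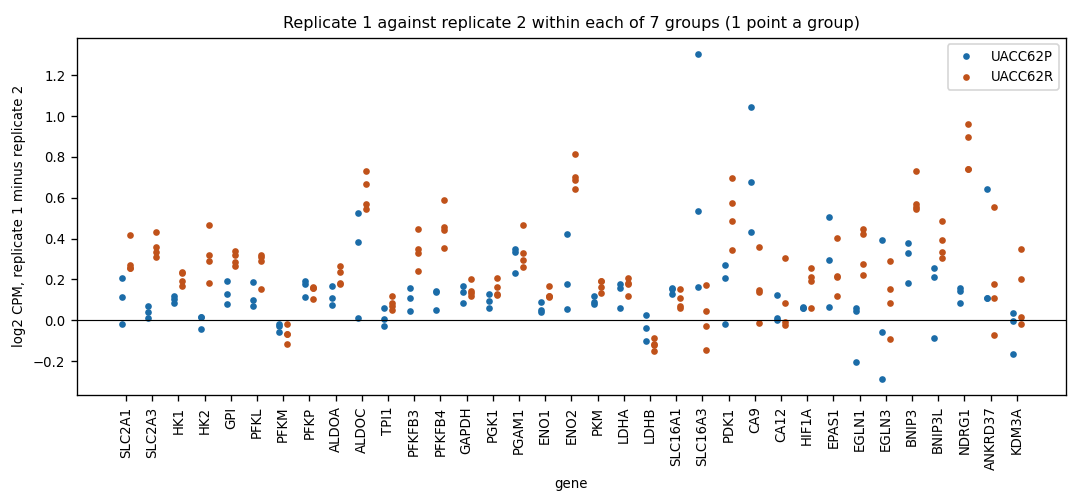
Log2 CPM of replicate 1 minus replicate 2 (y axis) for each of the 35 genes (x axis), 1 point for each of 7 groups. Most points lie above 0, with the UACC62R points of NDRG1, ENO2, ALDOC and BNIP3 among the highest, and PFKM and LDHB mostly below.

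Other genes of these pathways were followed as 6 lists of 84 genes, of which 74 had enough reads. Between the untreated lines 27 were higher and 21 lower in UACC62R (64.9% of those tested), where 27.8% of all genes were higher and 26.1% lower. Of 26 further HIF-responsive genes, 25 were tested, 15 were higher and 3 lower. PLOD2, a collagen lysyl hydroxylase, stood at 17.9 and 20.0 CPM in UACC62P and 142 and 188 CPM in UACC62R (3.12), and LOXL2, a lysyl oxidase, at 388 and 302 CPM in UACC62P and 2877 and 2831 CPM in UACC62R (3.05), while the MYC antagonist MXI1 was lower (-1.80). The angiogenic factor VEGFA (1.45), the peptide hormone ADM (0.89) and the collagen prolyl hydroxylase P4HA1 (0.35) were higher, with adjusted p of 3.87e-06, 4.76e-04 and 4.22e-04, and the mTORC1 inhibitor DDIT4 did not pass (0.43; 0.42 and adjusted p = 0.0231 with the block). Of 7 further oxygen-sensing genes, 6 were tested, 2 were higher and 1 lower: CITED2, which competes with HIF for its coactivator (2.19), VHL (0.92) and the HIF partner ARNT2 (-2.81).

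The lists for the branches off glycolysis are short and are given by count, to be read against the same shares of all genes (27.8% higher and 26.1% lower). Of 10 genes of glycogen and sugar sensing, 9 were tested, 0 were higher and 5 lower, with the glycogen phosphorylases PYGB (-1.62) and PYGL (-1.21) and the phosphoglucomutase PGM1 (-1.36) the most. Of 8 pentose phosphate genes 2 were higher and 4 lower, with RPIA at -1.44 and RPE at -0.71. Of 12 genes for mitochondrial entry of pyruvate and its oxidation 4 were higher and 6 lower. The carrier subunit MPC1 was lower (-1.43) and the phosphatase PDP1, which activates pyruvate dehydrogenase, higher (0.97). The kinase PDK2 had 1 read over both untreated UACC62P libraries and 116 over both of UACC62R, and the transporter SLC16A7 (MCT2) 1 and 286, for which no fold is given. Of 21 other transporters and isozymes 14 were tested, 4 were higher and 2 lower, among them SLC2A12 and PFKFB2 (-1.19). SLC2A12 had 11 and 1 reads in the untreated UACC62P libraries and 174 and 220 in those of UACC62R, and its log2 difference of 4.87 became 7.29 without UACC62P 0 h replicate 1 and 4.04 without its replicate 2. TXNIP, the glucose-responsive brake on glucose uptake, was listed at 0 reads in all 15 libraries and was not tested. Whether the annotation or the counting removed its reads was not tested either, so the 0 is not read as absence of its RNA.

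In treated libraries, P4HA1 and ADPGK were among the genes called in both lines. P4HA1 and P4HA2, the catalytic subunits of collagen prolyl hydroxylase, rose in each of the 4 comparisons of 6 h or 24 h with 0 h. P4HA1 was read in UACC62P at 137 and 131 CPM untreated, 147 after 2 h (1 library), 175 and 172 after 6 h and 223 and 206 after 24 h and in UACC62R at 175 and 167 CPM untreated, 191 and 194 after 2 h, 224 and 226 after 6 h and 323 and 325 after 24 h, with 24 h log2 fold changes of 0.68 (adjusted p = 6.98e-05) and 0.92 (adjusted p = 2.33e-06). P4HA2 reached 0.75 and 0.96 at 24 h. Leaving out 1 library ended the 6 h calls of P4HA1 (without any of the UACC62P 0 h or 6 h libraries in that line, and without UACC62R 0 h replicate 2 or either UACC62R 6 h library) and the 6 h call of P4HA2 in UACC62R (without any of its 0 h or 6 h libraries), with adjusted p up to 0.143, and no 24 h call of either gene. ADPGK, the ADP-dependent glucokinase, fell. It was read in UACC62P at 73.1 and 74.5 CPM untreated, 51.1 after 2 h (1 library), 36.6 and 32.8 after 6 h and 32.4 and 34.8 after 24 h and in UACC62R at 75.6 and 86.1 CPM untreated, 57.9 and 70.2 after 2 h, 41.2 and 53.2 after 6 h and 34.7 and 36.4 after 24 h, with log2 fold changes of -1.09 and -1.13 at 6 and 24 h in UACC62P and -0.78 and -1.19 in UACC62R, all 4 called (adjusted p from 3.35e-05 to 0.0073), the UACC62R 6 h call being lost without UACC62R 0 h replicate 2 or UACC62R 6 h replicate 1 (up to 0.105). INSIG2, a brake on sterol synthesis, rose at 6 h (0.96) and 24 h (0.84) in UACC62P and at 24 h (0.69) in UACC62R, calls lost without UACC62P 0 h replicate 1 (6 h), UACC62P 0 h replicate 2, UACC62P 6 h replicate 2, either UACC62P 24 h library, UACC62R 0 h replicate 2 or UACC62R 24 h replicate 1 (adjusted p up to 0.246).

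By list, 5 further HIF-responsive genes of 25 were higher and 0 lower at 6 h in UACC62P, 5 and 0 at 24 h, 2 and 0 at 6 h in UACC62R, and 5 and 0 at 24 h. Over all 74 genes the calls were 5 higher and 1 lower, 7 and 4, 2 and 2, and 9 and 4 in the same order. Of all genes, 0.848% were higher and 0.671% lower, 2.19% and 1.65%, 0.38% and 0.286%, and 6.48% and 8.23% in that order, so at 24 h in UACC62R the share of the 74 genes was near that of all genes. The calls were 15 and 3, 13 and 6, 16 and 2, and 19 and 6 with the block. Leaving out 1 library gave 2 to 7, 4 to 11, 0 to 6 and 8 to 15 calls in that order. The mitochondrial kinase PDK4 was read in UACC62R at 11.9 and 15.1 CPM untreated, 5.96 and 7.24 after 2 h, 6.34 and 5.31 after 6 h and 27.3 and 22.1 after 24 h, lower at 6 h (-1.21, adjusted p = 0.0152) and higher at 24 h (0.87, adjusted p = 0.00817) than untreated. The first call was lost without UACC62R 0 h replicate 2 or either UACC62R 6 h library (adjusted p up to 0.173) and the second without UACC62R 0 h replicate 1 or UACC62R 24 h replicate 1 (up to 0.0741). PDP1, which opposes the kinases, was lower at 24 h in UACC62P (-0.52, lost without any 1 of its 0 h or 24 h libraries) and UACC62R (-0.64), and MPC1 was higher in UACC62R (0.50, lost without UACC62R 0 h replicate 2 or UACC62R 24 h replicate 2). PCK2, which makes phosphoenolpyruvate in mitochondria, was higher at 24 h in UACC62P (1.11, adjusted p = 0.0104). Without UACC62P 0 h replicate 2 or UACC62P 24 h replicate 1 it was not called (adjusted p up to 0.149). VEGFA, ADM and DDIT4 did not pass at any time without the block, with values from -0.13 (VEGFA, UACC62R 2 h) to 0.77 (DDIT4, UACC62P 24 h). With it, VEGFA and DDIT4 were higher at 6 and 24 h in UACC62P, ADM at 24 h in UACC62P and 6 h in UACC62R, and DDIT4 at 24 h in UACC62R.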

How the data were processed

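Poly(A) RNA-seq libraries of 2 melanoma lines, 16 in all, were read from the raw gene counts that the authors deposited, 1 table per library. The submitters' processing notes name bcl2fastq 2.19.0, FastQC 0.11.5, Trimmomatic 0.33, HISAT2 2.1.0, HTSeq 0.6.1 and the build hg19, without roles or settings. The 5 HTSeq summary lines were left out of library sizes and tests. Counts were fitted in R 4.3.3 with edgeR 4.0.16 (limma 3.58.1): filterByExpr by group, TMM scaling and 1 coefficient per group over 15 libraries (7 residual degrees of freedom), with quasi-likelihood F tests, Benjamini-Hochberg adjustment over 20280 genes and a threshold of 0.05. SEs were derived from F as log2 fold change over its square root. The steps were also run on simulated counts, drawn independently for each library. Those counts held no offset by replicate number, so that run does not test the fits on paired libraries. Alternatives were all 16 libraries, other scalings, no filter, DESeq2 1.42.0, a replicate block and each library left out. The block adds an offset per gene that both lines share. Same-numbered libraries deviated together in 21 of 21 pairs of groups (correlation 0.174 to 0.718, median 0.395, over 8273 genes), so the numbers pair the samples, which the data show and no label states. Replicates differed by more than counting noise (chi-square per degree of freedom 8.58 to 17.3). Lengths for CPM per kb came from GENCODE v29, and promoters from RefSeq on GRCh38.p14. Exon overlaps above 10% were found in ALDOA, ALDOC, GAPDH, LDHB, CA9 and ANKRD37. The 35 genes and all lists were chosen with earlier results of these data known. Values per library are given for 17 genes fixed by name and for any other among the 4 largest calls each way, and other genes by range; from the pathway lists up to 3 called genes per list and comparison are named, with TXNIP, VEGFA, ADM, P4HA1 and DDIT4, except 1 that is not reported here.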

Additional observations from a re-analysis of the deposited data

How the results depend on the processing

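Between the untreated lines, 18 (all 16 libraries) to 28 (replicate block) of the 35 genes were called under the alternatives, against 26. Treatment calls depended on the fit. With all 16 libraries 0 genes were called at 6 and 24 h in both lines and 0 between 24 and 6 h in UACC62R. Without a filter on low counts the calls were 1, 9 and 6 in UACC62P and 1, 9 and 12 in UACC62R at 2, 6 and 24 h, 4 and 13 between 24 and 6 h, and 1 and 4 for the difference of the 6 and 24 h responses. The replicate block gave 1, 13 and 8 in UACC62P, 7 and 15 in UACC62R at 6 and 24 h, 5 and 15 between 24 and 6 h, and 1 and 3 for the difference of the responses. It turned the direction of none of the 35 genes where they were called in either fit. With library size alone 2 genes were called at 6 h in UACC62R. DESeq2 called 2 at 6 h in UACC62R, 1 between 24 and 6 h in UACC62P and 1 in the difference of the 24 h responses. Leaving out 1 library gave 0 to 2 calls at 6 h and 0 to 1 at 24 h in UACC62P, 0 to 1 at 6 h and 1 to 6 at 24 h in UACC62R, 2 to 7 between 24 and 6 h in UACC62R and 22 to 26 between the lines. Signs were followed only for fold changes called without the block, and for those of the 35 genes called with it. Leaving out 1 library changed the sign of 3 of them, each called only with the block. BNIP3 at 24 h in UACC62R ranged from -0.0805 without replicate 1 at 24 h to 0.668, PGAM1 there from -0.48 to 0.00241 without replicate 2 at 24 h, and GPI between the lines from -0.323 to 0.00658 without UACC62R 0 h replicate 2. Over all genes, 308, 780, 135 and 2984 were called at 6 and 24 h in UACC62P and at 6 and 24 h in UACC62R. These counts were 10, 29, 5 and 344 with 16 libraries, 889, 1518, 451 and 3436 without the filter, 664, 1289, 282 and 3359 with DESeq2 and 1415, 2448, 566 and 4898 with the block. The cause of these differences was not tested; the blocked fit compares libraries within a replicate number, and the fit of 16 libraries adds the 1 library that stood apart.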

Other observations

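The library left out, labelled UACC62P 2 h replicate 1, was read on the same scale. It held SOX10, a melanocyte transcription factor, at 18.2 CPM, where the other UACC62P libraries held 738 to 915 and the UACC62R libraries 20.3 to 30.2. CA9 stood at 63.6 CPM there. Of the 21 genes with separate ranges in the lines, 17 fell within the UACC62R range.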
